A study of Mus musculus with 2 samples.

Results

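The 9 genes described here, Rasgrp1, Rasgrp2, Rasgrf1, Rasgrf2, Rasd1, Rasd2, Map2k1, Mapk3 and Ptpn5, code for exchange factors, small GTPases, kinases and a phosphatase of Ras and ERK signalling in striatal neurons. They were chosen by symbol, and all 9 were found among the 32531 gene symbols of the count files. The libraries came from the ventral striatum of adult, untreated control mice of line JX5852, in which Stard5 regulatory sequence drives ribosomal protein L10a tagged with EGFP. Ribosomes with the tag were pulled down with antibodies against EGFP, a method called translating ribosome affinity purification (TRAP), and the RNA bound to them was sequenced. There were 2 such libraries, replicates 1 and 2 of the only group, with 25830282 and 29574781 reads in genes. No input RNA, other mouse line or treated group was analysed here, so the values are levels in the pulled-down RNA, without a comparison between conditions or an enrichment over the tissue. Whether the replicates stem from different mice or pools is not stated in the labels, and their spread may be technical. In these bulk samples fewer cells of a type and less RNA per cell cannot be told apart.

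Ras proteins are switches that are active when bound to GTP. Exchange factors load them with GTP, active Ras recruits Raf kinases, Raf phosphorylates the MEK kinases, and MEK phosphorylates the ERK kinases, which act on cytoplasmic and nuclear targets. In spiny projection neurons, the output neurons of the striatum, dopamine and glutamate inputs converge on ERK, and calcium-responsive exchange factors and a striatum-enriched tyrosine phosphatase take part in setting its activity.

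Levels are given as CPM, reads per 1000000 reads assigned to genes, and genes are compared with each other per kilobase of annotated exon. Genes with at least 1 CPM in each library were taken as detected, which held for 12374 genes. By this rule 8 of the 9 genes were detected and Rasd1 was not. All 8 stood above 10 CPM in both libraries, 5 above 100 CPM and 1, Rasgrp1, above 1000 CPM. Of all genes of the series, 7823, 1915 and 67 reached these levels in both libraries. The median level of the 9 genes was 59.5 CPM per kilobase, against 5.31 CPM per kilobase over all detected genes with a length. Together the 9 genes took 4069 and 3501 CPM in replicates 1 and 2, of which Rasgrp1 made up 47.1% and 38.7%.

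Of the markers of spiny neurons all 14 were detected, from Adora2a at 106 CPM to Gnal at 2482 CPM. Their levels summed to 11238 CPM in replicate 1, against 8747 CPM in replicate 2. This list is for spiny neurons and does not test the ventral part of the tissue label. The replicates differed in markers of other cells and of the nucleus. The 8 astrocyte markers summed to 908 CPM in replicate 1, against 3048 CPM in replicate 2, the 7 oligodendrocyte markers to 850 and 1311 CPM, and 5 RNAs that stay in the nucleus to 3819 and 10504 CPM. Markers of cholinergic interneurons summed to 88.8 and 119 CPM, of GABAergic interneurons to 106 and 160, and of glutamatergic neurons to 17.8 and 40.5. Those of oligodendrocyte precursors summed to 59.3 and 143 CPM, and those of endothelial and mural cells to 22.0 and 25.3 CPM. By summed level the 6 microglia markers went the other way, at 164 and 122 CPM. The 3 detected endothelial and mural markers had a median log2 ratio of replicate 1 over replicate 2 of 0.28, unlike their sum. Stard5, the gene behind the tag, stood at 166 and 54.9 CPM in replicates 1 and 2.

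**Figure D1:**
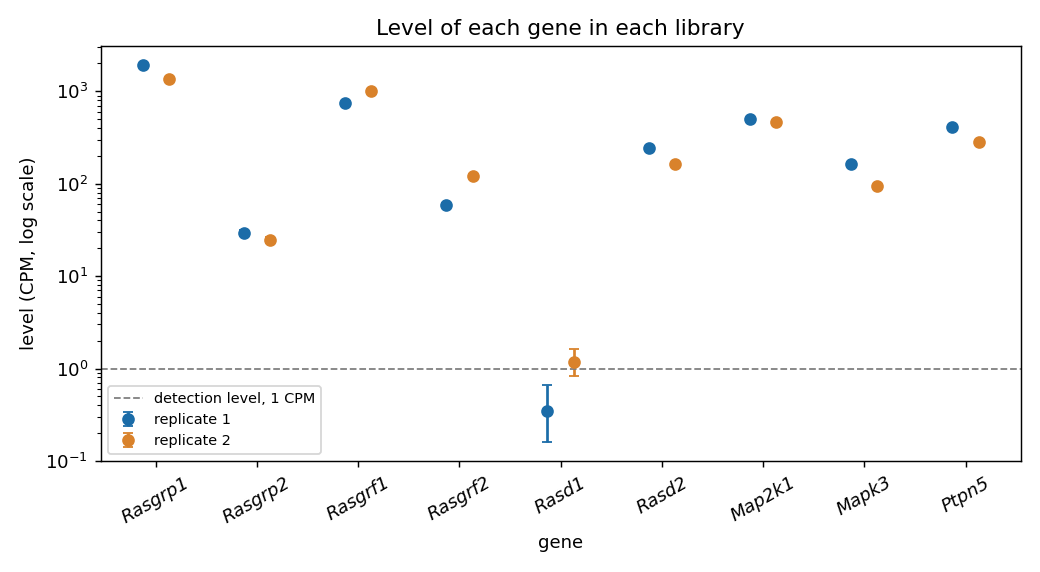
Level in CPM (log axis) of each gene in replicate 1 (blue) and replicate 2 (orange), with exact Poisson 95% intervals that are mostly smaller than the points; the dashed line marks 1 CPM. Rasgrp1 lies highest at 1917 and 1354 CPM, and Rasd1 lies lowest at 0.348 and 1.18 CPM, on either side of the line.

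The exchange factors spanned a wide range of levels. Rasgrp1, which is switched on by diacylglycerol and calcium, was the most abundant of the 9 genes, with 1917 CPM in replicate 1 (95% interval 1900.5 to 1934) and 1354 CPM in replicate 2 (1341 to 1368), a mean of 1636 ± 398 CPM (SD, n = 2). Per kilobase it ranked 38 of the 23113 genes with a length. Rasgrp1 (ENSMUSG00000027347.18) lies on the minus strand of chromosome 2 from 117279993 to 117343001 in GRCm38. Rasgrp2, its paralogue, which acts mainly on the Ras relative Rap, had 754 and 721 reads, or 29.2 and 24.4 CPM in replicates 1 and 2. Rasgrp2 (ENSMUSG00000032946.16) lies on the plus strand of chromosome 19 from 6399340 to 6415216, and 2.14% of its exon bases are shared with the antisense gene Gm14965. Per kilobase of exon, Rasgrp1 stood above 99.7% and Rasgrp2 above 26.8% of the detected genes. Per kilobase of the longest coding transcript these shares were 99.5% and 60.9%.

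Rasgrf1 and Rasgrf2, exchange factors that bind calmodulin and couple calcium entry to Ras, were both detected. Rasgrf1 had 756 CPM in replicate 1 and 999 CPM in replicate 2, a mean of 877 ± 172 CPM (SD, n = 2), and stood above 97.5% of the detected genes per kilobase. Rasgrf2 had 59.1 CPM in replicate 1 and 122 CPM in replicate 2, a mean of 90.5 ± 44.5 CPM. Both were higher in replicate 2. Rasgrf1 (ENSMUSG00000032356.12), known as an imprinted gene in mouse brain, lies on the plus strand of chromosome 9 from 89909908 to 90026977, and Rasgrf2 (ENSMUSG00000021708.17) on the minus strand of chromosome 13 from 91880400 to 92131656.

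To show the sequence at which transcription of these calcium-coupled paralogues begins, the 250 bases before each start site are given, from RefSeq on GRCm38.p6, on the strand of the gene. The Rasgrf1 window is chr9:89909525-89909774 on the plus strand and the Rasgrf2 window is chr13:92131829-92132078 on the minus strand. Capitals mark TGACG or its reverse complement CGTCA, the half-site bound by CREB, a factor that ERK-activated kinases phosphorylate.
Rasgrf1: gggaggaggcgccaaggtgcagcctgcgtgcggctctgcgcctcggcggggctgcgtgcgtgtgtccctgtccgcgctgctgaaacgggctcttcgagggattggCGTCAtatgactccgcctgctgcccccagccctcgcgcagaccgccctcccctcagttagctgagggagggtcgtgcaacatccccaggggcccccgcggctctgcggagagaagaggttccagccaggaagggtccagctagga
Rasgrf2: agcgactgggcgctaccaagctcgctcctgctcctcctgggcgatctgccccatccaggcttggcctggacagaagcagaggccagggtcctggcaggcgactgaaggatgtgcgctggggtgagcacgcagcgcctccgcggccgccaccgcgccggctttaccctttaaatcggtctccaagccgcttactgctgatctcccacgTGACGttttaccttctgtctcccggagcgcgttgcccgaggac
Each window held 1 half-site, and neither held the full palindrome TGACGTCA. Of the 32851 windows of this length in the table, 17.8% hold the half-site on either strand and 1.55% the palindrome, which itself contains both forms of the half-site. The windows held 21 CG dinucleotides for Rasgrf1 and 22 for Rasgrf2, against a median of 6 over the table. Those of Rasgrp2 held 31 and 21, Rasd2 27, Map2k1 24, Rasgrp1 21 and Ptpn5 16 and 5. The half-site itself holds a CG, so 17.8% is not a like background for windows with more CG than that median. Of the 9 genes 7 matched the table by symbol, and Mapk3 and Rasd1 did not. Map2k1 held 2 half-sites and the windows of Rasgrp1, Rasgrp2, Rasd2 and Ptpn5 held 0. A match describes letters in the window and is not a measured site.

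Of the summed level per kilobase of the 4 exchange factors, Rasgrp1 took 81.6% in replicate 1 and 69.6% in replicate 2, and Rasgrf1 took 16.3% and 26.0%. Rasgrf2 took 1.52% and 3.80%, and Rasgrp2 0.562% and 0.567%. Rasgrp1 and Rasgrf1 held most of the summed level in both libraries, and the lead of Rasgrp1 was smaller in replicate 2. Divided by the length of the longest coding transcript, the shares of Rasgrp1 were 66.9% and 51.8% and those of Rasgrf1 28.9% and 41.9%. By that length Rasgrp2 took 2.32% and 2.12% and Rasgrf2 1.86% and 4.21%, so Rasgrp2 was above Rasgrf2 in replicate 1 and below it in replicate 2.

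The small GTPases Rasd1 and Rasd2 were far apart. Rasd2, known as Rhes and enriched in striatum, had 243 CPM in replicate 1 (95% interval 237 to 249) and 164 CPM in replicate 2 (159 to 169), a mean of 204 ± 55.9 CPM (SD, n = 2). Rasd1, known as Dexras1 and named for its induction by dexamethasone, had 9 reads in replicate 1, or 0.348 CPM (0.159 to 0.661), and 35 reads in replicate 2, or 1.18 CPM (0.824 to 1.65). It therefore passed 1 CPM in replicate 2 alone. Rasd1 (ENSMUSG00000049892.7) lies on the minus strand of chromosome 11 from 59963181 to 59964944, and 0% of its exon bases are shared with another annotated gene. Rasd2 (ENSMUSG00000034472.13) lies on the plus strand of chromosome 8 from 75213944 to 75224113.

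The kinases were both detected. Map2k1, which codes for the ERK-activating kinase MEK1, had 496 CPM in replicate 1 and 460 CPM in replicate 2, a mean of 478 ± 25.6 CPM (SD, n = 2). Its libraries differed least among the 9 genes. Mapk3, which codes for ERK1, had 162 CPM in replicate 1 and 93.8 CPM in replicate 2, a mean of 128 ± 48.0 CPM. Map2k1 (ENSMUSG00000004936.8) lies on the minus strand of chromosome 9 from 64185770 to 64253631, and Mapk3 (ENSMUSG00000063065.13) on the plus strand of chromosome 7 from 126759601 to 126765819.

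Ptpn5 codes for STEP, the striatum-enriched tyrosine phosphatase that removes the activating phosphate from ERK. It had 406 CPM in replicate 1 (95% interval 399 to 414) and 283 CPM in replicate 2 (277 to 289), a mean of 345 ± 87.3 CPM (SD, n = 2). Ptpn5 (ENSMUSG00000030854.17) lies on the minus strand of chromosome 7 from 47077795 to 47133684.

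Per kilobase of exon the order was Rasgrp1 at 292 ± 71.1, Map2k1 at 141 ± 7.54, Rasgrf1 at 79.3 ± 15.5, Rasd2 at 64.1 ± 17.6, Ptpn5 at 59.5 ± 15.1, Mapk3 at 56.6 ± 21.3, Rasgrf2 at 9.80 ± 4.81, Rasgrp2 at 2.16 ± 0.275 and Rasd1 at 0.475 ± 0.367 CPM per kilobase (SD, n = 2 each). With all exons as the length, the library values of Rasgrp1 and Map2k1 did not overlap with each other or with those of Rasgrf1 below them. Rasgrf1, Rasd2, Ptpn5 and Mapk3 followed, each overlapping with the next over the 2 libraries, although Rasd2 was above Ptpn5 in both. Rasgrf2, Rasgrp2 and Rasd1 came last, without overlap when all exons gave the length. With the longest protein-coding transcript as the length, an alternative chosen after the data were seen, Ptpn5 (110 CPM per kilobase) came before Rasd2 (72.4), and Rasgrp2 was at 11.7 CPM per kilobase, since the annotated exons of Rasgrp2 span 12384 bases and its longest coding transcript 2296. By that length Rasgrf2 had 10.2 CPM per kilobase in replicate 1 and 21.0 in replicate 2 and Rasgrp2 had 12.7 and 10.6, so their ranges overlapped and their order differed between the libraries. The same held for Map2k1, with 204 and 189 CPM per kilobase in replicates 1 and 2, and Rasgrf1, with 159 and 210.

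**Figure D2:**
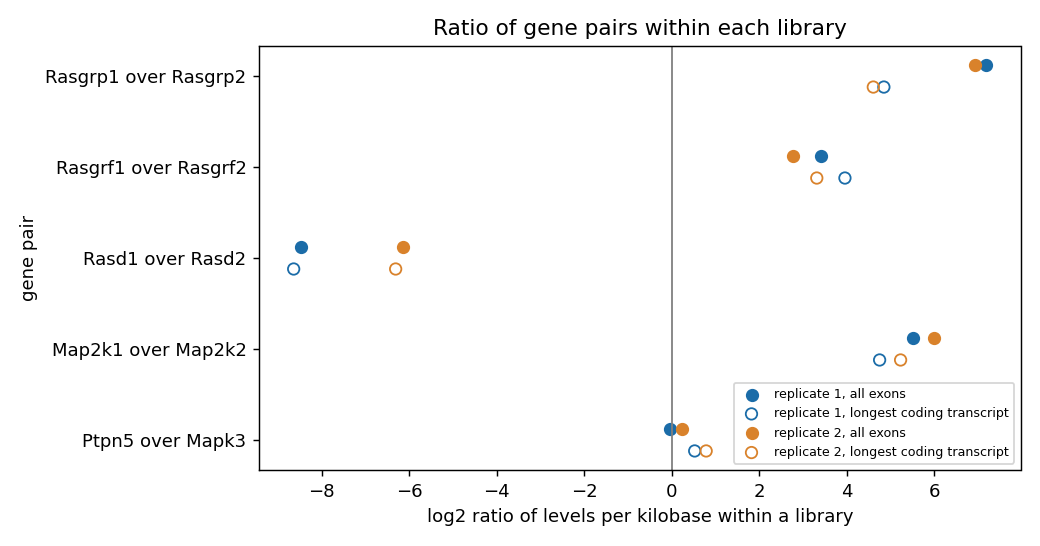
Log2 ratio of levels per kilobase for 5 gene pairs in replicate 1 (blue) and replicate 2 (orange), with all annotated exons (filled) or the longest coding transcript (open) as the length; points right of 0 mean that the first gene named is higher. Map2k1 lies above Map2k2 in both libraries, while Ptpn5 over Mapk3 lies at -0.03 and 0.23 by all exons and at 0.52 and 0.79 by the coding transcript.

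Within each library, 1 gene of each of the 4 paralogue pairs given here stood well above the other. Rasgrp1 exceeded Rasgrp2 by 7.18 log2 units per kilobase in replicate 1 and 6.94 in replicate 2, a mean of 7.06 ± 0.17 (SD, n = 2), or 4.73 with the coding transcript as the length. Rasgrf1 exceeded Rasgrf2 by 3.42 and 2.77 log2 units, a mean of 3.10 ± 0.46. Rasd1 over Rasd2 stood at -8.47 in replicate 1 and -6.14 in replicate 2, the widest spread of the pairs, and rests on 9 and 35 reads of Rasd1.

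In the kinase tier, Map2k1 exceeded Map2k2, the gene of MEK2, by 5.51 log2 units in replicate 1 and 5.99 in replicate 2, and held 96.5% (Clopper-Pearson 95% interval 96.1 to 96.8) and 97.4% (97.2 to 97.7) of the reads of the pair. Map2k2 had 18.2 and 12.1 CPM in replicates 1 and 2. Ptpn5 over Mapk3 stood at -0.03 in replicate 1 and 0.23 in replicate 2, with no common sign by all exons. With the coding transcript the ratios were 0.52 and 0.79, and the sign thus depends on the length used.

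GC content showed no common direction across these pairs. Of the 4 paralogue pairs, the lower gene had the higher GC content in 2, with 46.7% in the longest coding transcript of Rasgrp1 and 58.0% in Rasgrp2, and 51.2% in Map2k1 and 60.4% in Map2k2. It had the lower GC content in the other pairs, with 50.8% in Rasgrf1 and 45.8% in Rasgrf2, and 53.0% in Rasd1 and 55.6% in Rasd2. Across the 9 genes, Spearman's rho between the level per kilobase of coding transcript and GC content was -0.30, and -0.16 across 11178 detected genes with a coding transcript. These are descriptions across genes that share the same libraries, and the part of GC content in the levels was not tested.

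Between the libraries, 6 of the 8 detected genes were higher in replicate 1 and 2, Rasgrf1 and Rasgrf2, in replicate 2. Ratios are given as replicate 1 over replicate 2, with library sizes scaled by edgeR's trimmed mean of M-values (TMM). The log2 ratio was 0.80 for Mapk3, 0.59 for Rasd2, 0.54 for Ptpn5, 0.52 for Rasgrp1, 0.28 for Rasgrp2 and 0.13 for Map2k1. It was -0.38 for Rasgrf1 and -1.03 (95% counting interval -1.11 to -0.94) for Rasgrf2. At a 2-fold difference or more, 0 of 8 were higher in replicate 1 and 1 of 8, Rasgrf2, was higher in replicate 2, beside 8.60% and 8.91% of all 12374 detected genes, or 17.5% in either direction. A share of 1 in 8 is near that background. The interval of Rasgrf2 reaches to both sides of 2-fold. Rasd1, outside the detected genes, stood at -1.74 (-2.99 to -0.66).

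**Figure D3:**
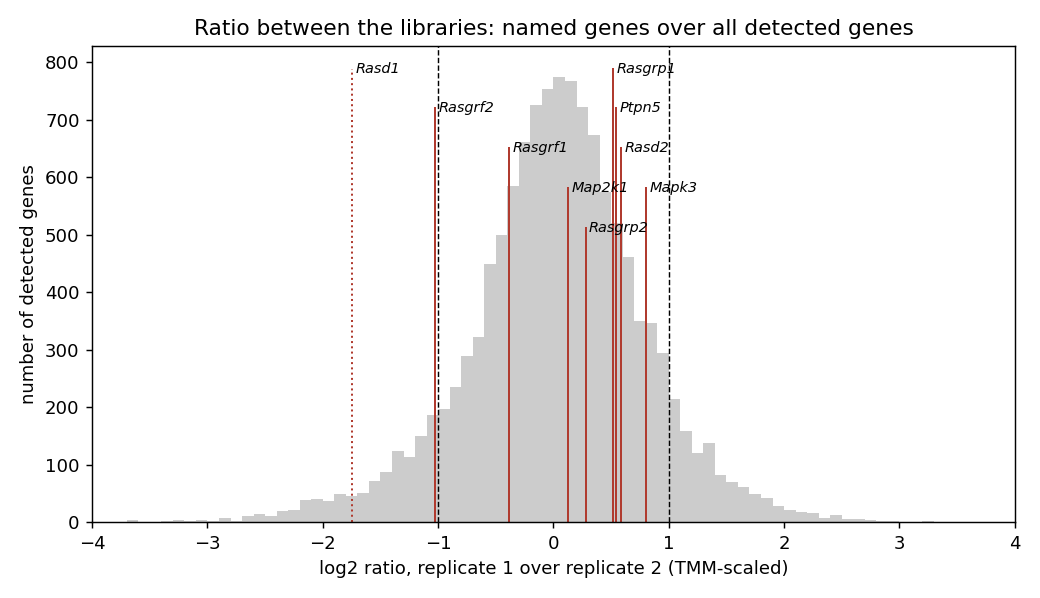
Number of detected genes by log2 ratio of replicate 1 over replicate 2 (grey, bins of a fixed width, values from -4 to 4 drawn), with red lines at the 9 genes (dotted for Rasd1, which was not detected in both libraries) and dashed lines at a 2-fold difference. The lines of 6 genes lie right of 0 and within the dashed lines, and Rasgrf2 lies at -1.03.

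The median log2 ratio of the 8 genes was 0.40, near the 0.40 of the 14 spiny neuron markers, against 0.05 over all detected genes. The astrocyte markers had a median of -1.69 and 7 of 8 passed 2-fold as higher in replicate 2, and the nuclear RNAs had a median of -1.33. Rasgrf1 and Rasgrf2 were higher in the same library as these lists, and the part of these RNAs in that difference was not tested. Across detected genes the log2 ratio was lower for longer exons (Spearman's rho -0.29), and Rasgrf1 and Rasgrf2, with 11063 and 9237 bases of annotated exon, are longer than the median of 4836. Rasgrp2, Ptpn5 and Rasgrp1, with 12384, 5794 and 5600 bases, are also longer than that median and were higher in replicate 1. The part of length in these ratios was not tested.

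Around the 9 genes, 102 of 109 other genes of the pathway were detected, 83 of them at 10 CPM or more in both libraries. Past 2-fold, 8 were higher in replicate 1 and 4 in replicate 2, beside 8.60% and 8.91% of all detected genes, so neither count stands above that background. The median level of all the listed genes with a length, detected or not, was 9.20 CPM per kilobase.

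Of 21 small GTPases related to Ras and Rap 20 were detected, and the median, undetected genes included, was 15.9 CPM per kilobase. The highest were Diras2 at 59.7 ± 1.46, Rit2 at 59.4 ± 19.5 and Mras at 32.9 ± 4.77 CPM per kilobase, and the lowest was Rras2 at 0.528 ± 0.007 (SD, n = 2 each). The classical Ras genes Nras and Hras, named after the data were seen, stood at 23.9 ± 6.04 and 9.15 ± 2.52 CPM per kilobase. By all exons, Rasd2 at 64.1 ± 17.6 overlapped with Diras2 and Rit2. Per kilobase of the longest coding transcript, Rit2 had 182 and 114 CPM in replicates 1 and 2, above Rasd2 at 86.5 and 58.4 without overlap.

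Of 12 other exchange factors for Ras and its relatives 11 were detected, and none of the 12 reached the level of Rasgrp1 or Rasgrf1. Rgl1, which acts on the Ras relative Ral, was highest at 30.9 ± 6.95 CPM per kilobase, then Rapgef4 and Rapgef2, which act on Rap, at 30.6 ± 3.98 and 21.9 ± 5.54. Sos1, the exchange factor of growth factor receptors, named after the data were seen, was at 16.5 ± 1.96. Rasgrp4 was lowest, with 0.039 and 0.710 CPM in replicates 1 and 2. Rasgrp3, named after the data were seen, was at 5.91 ± 0.111 CPM per kilobase, or 34.5 ± 0.647 CPM without division by length.

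Of 13 GTPase-activating proteins, which switch Ras and Rap off, 12 were detected, among them Sipa1l1 at 68.7 ± 1.44 and the neurofibromin gene Nf1 at 39.0 ± 10.7 CPM per kilobase. All 14 adaptors were detected, led by Crk at 31.1 ± 5.12, the phosphatase gene Ptpn11 at 21.8 ± 3.83 and Grb2 at 20.6 ± 3.31. All 14 Raf kinases, scaffolds and partners were detected, among them the 14-3-3 gene Ywhab at 392 ± 18.4 and the scaffold gene Cnksr2 at 113 ± 17.0. The Raf kinase genes Braf and Araf, named after the data were seen, stood at 61.6 ± 5.67 and 10.1 ± 1.06 CPM per kilobase.

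**Figure D4:**
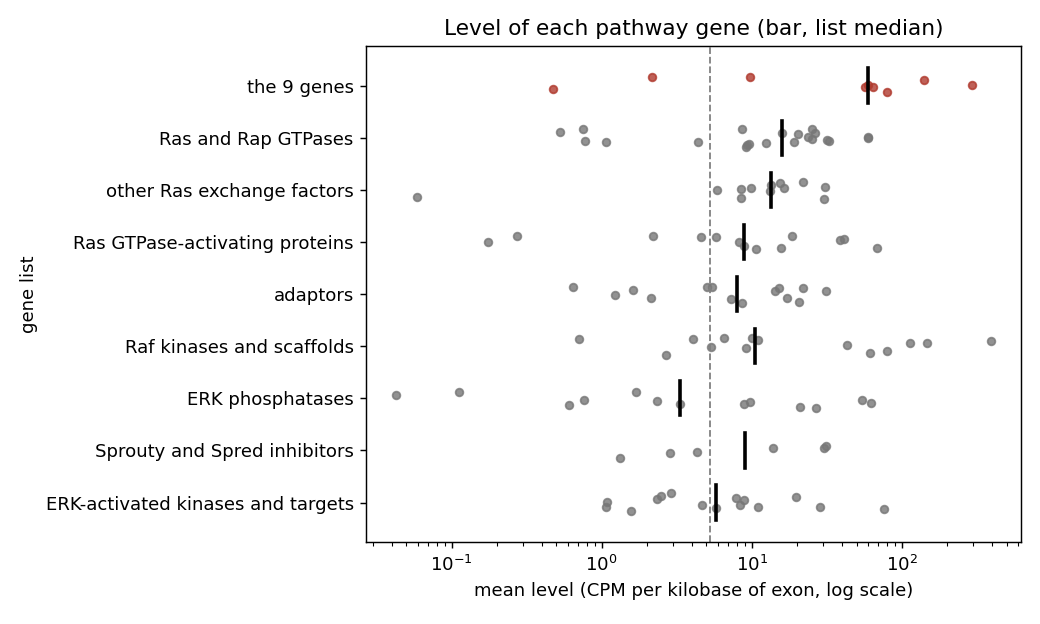
Mean level in CPM per kilobase of exon (log axis) of each gene, for the 9 genes (red) and 8 lists of other pathway genes (grey), with a bar at each list's median and a dashed line at the median of all detected genes. The 9 genes have a median of 59.5 and the 8 lists have medians from 3.32 to 15.9 CPM per kilobase. These medians include genes that were not detected.

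Of 13 phosphatases and regulators that act on ERK 10 were detected, and the median, undetected genes included, was 3.32 CPM per kilobase. By all exons, Ptpn5 at 59.5 ± 15.1 CPM per kilobase overlapped with the highest of them, the phosphatase 2A subunit gene Ppp2cb at 62.5 ± 10.3. It also overlapped with Pea15a, which holds ERK in the cytoplasm, at 54.0 ± 4.67. Per kilobase of the longest coding transcript, Ptpn5 had 129 and 89.96 CPM in replicates 1 and 2. By that length Ppp2cb had 69.8 and 55.1 and Pea15a 88.5 and 78.3, so Ptpn5 lay above both without overlap. By all exons, the ERK-specific phosphatase gene Dusp6, named after the data were seen, was at 2.35 ± 0.477 CPM per kilobase. Dusp9 was lowest, with 0.232 CPM in replicate 1 and 0 reads in replicate 2, for which the exact Poisson interval reaches 0.125 CPM. Of 7 Sprouty and Spred genes, inhibitors of the pathway, 6 were detected, led by Spred1 at 31.2 ± 2.85 and Spred2 at 30.4 ± 9.13 CPM per kilobase. Spry1, the lowest with a length, had 5.73 and 1.99 CPM in replicates 1 and 2.

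All 15 ERK-activated kinases and targets were detected, and 3, Egr1, Elk4 and Fos, were higher in replicate 1 at 2-fold, a call that 8.60% of all detected genes had. The activity-induced transcription factor gene Egr1 had 486 and 194 CPM in replicates 1 and 2, and Elk4, a factor that ERK phosphorylates, had 251 and 112 CPM. Fos, named for this count, had 9.33 and 1.69 CPM. The ribosomal S6 kinase gene Rps6ka3 stood at 19.8 ± 2.13 CPM per kilobase, and Mknk2 was lowest at 1.07 ± 0.037 (SD, n = 2 each). Mapk3 was also higher in replicate 1, at a ratio under 2-fold, while Map2k1 differed less, at a log2 ratio of 0.13.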

How the data were processed

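The authors deposited raw counts of reads per gene symbol, 1 file per library. STAR 2.0.0e and HTSeq with build mm10 were used, per the submitters' processing notes. Annotation, strand setting and filters were not stated, so reads of overlapping genes cannot be told apart. Totals exclude 6 lines with no gene name. In replicates 1 and 2, these lines gave 22.8% and 31.0% of all reads to no annotated feature, 27.9% and 13.6% to multiple alignments and 1.84% and 2.08% to ambiguous features.

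CPM was computed over named genes. At 1 CPM a gene has 25.8 reads in replicate 1 and 29.6 in replicate 2. Single libraries carry exact Poisson 95% intervals, shares of reads exact Clopper-Pearson intervals, and ratios between libraries the matching binomial interval. All of them take in only the counting error of reads, and PCR reads with no molecular identifiers do not count molecules. Exon lengths, GC content and coordinates came from GENCODE M21 (GRCm38, the build of mm10), joined on the symbol, which gave 23113 unique matches, among them 92.7% of the detected genes. Ratios between libraries were scaled with TMM in edgeR 4.0.16 over all genes, and no significance test was run, because 2 libraries of 1 group leave no comparison between groups. The ratio calculation was checked on counts simulated with known changes.

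The members and lists were chosen with earlier results of these data known. Named genes are the 9, Map2k2, Stard5, Rpl10a (not described further) and, of each pathway list, the up to 3 highest and the lowest per kilobase; other names are marked, and a few genes and 1 gene pair are not reported here. No gene outside the members was named for a pattern like theirs, since 2 libraries of 1 group give none. Alternatives were library size alone, DESeq2 1.42.0 size factors, library size without the ribosomal RNA precursor Rn45s, other filters, other lengths and each library left out.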

Additional observations from a re-analysis of the deposited data

How the results depend on the processing

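The count of the 9 genes at a 2-fold difference between the libraries was 1 under library size alone, DESeq2 size factors, library size without Rn45s and when only genes averaging 5 CPM or more were kept. With no filter beyond 1 read in both libraries it was 2 of 9, since Rasd1 then entered. The count over all genes was then 4653 of 15742, in place of 2167 of 12374, so the share over all genes was also higher. Length moved the ratios of gene pairs, all in log2 units. Without division by length they were 5.92 for Rasgrp1 over Rasgrp2, 5.01 for Map2k1 over Map2k2 and 1.46 for Ptpn5 over Mapk3. With the longest transcript they were 6.67 for Rasgrp1 over Rasgrp2, 3.64 for Rasgrf1 over Rasgrf2, 4.99 for Map2k1 over Map2k2 and 0.59 for Ptpn5 over Mapk3. With the longest protein-coding transcript, chosen after seeing the data, they were 4.73, 3.64, 4.99 and 0.66 for the same pairs. Of the 5 pairs, leaving out a library turned only Ptpn5 over Mapk3, which was 0.23 without replicate 1 and -0.031 without replicate 2, around a mean of 0.10. By CPM alone 5 of the 9 genes kept their place in the order. Under other scalings, 34 of 36 single-gene values moved by less than their spread or counting interval. Levels in 1 library alone are those printed per replicate; they lie within 1 SD of the mean by construction. Without replicate 1, all 9 genes passed 1 CPM. No paired analysis was possible because there is 1 group. With 2 libraries, the spread itself is poorly known, and depth limits Rasd1 alone among the 9 genes.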
